A study of Mus musculus with 2 samples.

Results

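The nuclear genes for the respiratory chain and ATP synthase in mouse liver are described here, complex by complex, in mice fed diosgenin and in mice on the basal diet. Members were the probe sets that the array's annotation assigns to exactly 1 gene symbol of a subunit of complex I (Ndufa, Ndufb, Ndufc, Ndufs and Ndufv series with Ndufab1), complex II (Sdha to Sdhd), complex III (Uqcr genes and Cyc1), complex IV (Cox4i, Cox5, Cox6, Cox7 and Cox8 genes) or complex V (Atp5 genes). This rule found 170 of 45101 probe sets, which stand for 83 of 18194 genes, 36 in complex I, 4 in complex II, 9 in complex III, 17 in complex IV and 17 in complex V. The rule used gene names and no measured value.

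The mice were of the outbred ICR strain. Control animals ate the basal diet CRF-1, and the other group, from 9 weeks of age and for 4 weeks, ate it with diosgenin added at 500 ppm. Diosgenin is a steroid aglycone found in yams and fenugreek. Livers were taken at 13 weeks of age, and RNA from 3 mice was pooled for each diet and hybridised to 1 array. With 1 array per diet there is no test and no error between mice, so higher and lower describe the diosgenin pool against the control pool, and these 2 pools only. Cages held 3 animals, so diet and cage cannot be told apart where a diet was 1 cage.

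The respiratory chain sits in the inner mitochondrial membrane. Complex I takes electrons from NADH and complex II from succinate, coenzyme Q carries them to complex III, cytochrome c carries them on to complex IV, and complex IV passes them to oxygen. Complexes I, III and IV pump protons, and complex V, the ATP synthase, uses the returning protons to make ATP. Hepatocytes are rich in mitochondria and use this ATP for glucose, urea and lipid synthesis. Most subunits are encoded in the nucleus, and a few catalytic ones in mitochondrial DNA. The mitochondrially encoded subunits were not analysed here.

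Values were signals on a linear intensity scale. Signals under a floor of 10.7 were set to the floor, each gene was read by its brightest probe set, and a gene counted as measured where the mean signal of both arrays reached 28.4, a filter that 9732 genes passed. Hepatocyte markers other than Ass1 were bright, with Alb, the serum albumin gene, at 9517 in the control pool and 8429 in the diosgenin pool. Ass1 read only 89.7 and 99.9. The 7 listed markers had log2 ratios from −0.18 to 0.16, the highest being that of Ass1. Endothelial markers were lower in 7 of 8 cases, with a summed signal of 2019 in the control pool and 1599 in the diosgenin pool. Clec4g, the brightest of them, read 745 and 464, while Cdh5, Kdr and Eng were near level, with log2 ratios from −0.057 to 0.032. Kupffer and myeloid markers were higher in 6 of 8 cases, with summed signals of 2285 and 2522. Of the stellate and fibroblast markers 5 were higher and 2 lower, with summed signals of 2206 and 2551 over 8 genes. The 4 cholangiocyte markers summed to 106 and 58.1, and of these Sox9 alone passed the filter. Skeletal muscle markers summed to 28.0 and 37.1 over 6 genes and lymphocyte markers to 44.6 and 78.7 over 5 genes, and no gene of either list passed the filter. The muscle genes Myh4, Tnnc2, Myl1 and Mb and the brown fat genes Ucp1 and Cidea were under the floor on both arrays. The other marker lists each had 1 or 2 genes above the filter. Acinar markers summed to 1284 and 1228, mostly through Cela1 at 1212 and 1150, while Cpa1 and Ctrb1 were under the floor on both arrays. The brown fat list summed to 1218 and 1129 through Ppara, which liver also expresses, and erythroid markers to 1334 and 1151 through Alas2. The part of cell composition in the values below was not tested, and in a bulk sample fewer cells of a type and less RNA per cell cannot be told apart.

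Transcripts of the respiratory chain were nearly level between the arrays. Of the 83 genes, 74 passed the filter, and all 74 read within 1.17-fold between the pools. The highest log2 ratio was 0.22 for Ndufb1 and the lowest −0.20 for Ndufa8. At least 1.5-fold differences were seen for 0 of the 74, against 2.84% higher and 3.61% lower among all genes above the filter. Those at least 1.1-fold higher numbered 6, or 8.11% against a background of 27.3%, and those at least 1.1-fold lower numbered 4, or 5.41% against 28.1%. Most subunits were bright, 69 of the 74 with a mean signal of 1000 or more, and ratios of all genes were also tighter there. In that range 5 subunits were at least 1.1-fold higher against 15.8% of all genes, and 3 at least 1.1-fold lower against 17%. Of the 69 subunits, 88.4% lay within 1.1-fold, against 65.5% of the 923 other genes. The standard deviation of log2 ratios there was 0.083 among the subunits and 0.22 among the other genes.

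Within this narrow range more subunits were higher than lower. Log2 ratios were above 0 for 50 of 74 subunits, 67.6%, against 49% of all genes above the filter, and below 0 for 24, 32.4% against 51%. The median log2 ratio of the 74 was 0.034, a 1.02-fold difference, against −0.0053 for all genes. Among genes with a mean signal of 1000 or more, 47 of 69 subunits were higher, against 48.5% of all 992 genes in that range, and 22 were lower, against 51.5%. Probe sets of the same gene, which repeat the measurement inside an array, differed with a standard deviation of 0.094 in log2 ratio over the 36 subunits with several probe sets in the brightest 10 percent of signals. Of the 72 subunits in that range of brightness, 14 were higher and 4 lower by more than this. Over the 42 subunits with several probe sets above the filter, dim ones included, the standard deviation was 0.15. Farther from 0 than this were 9 of the 74, 5 higher and 4 lower. How many of all genes lay past either limit was not computed, so these counts have no background beside them. Over all genes the standard deviation between probe sets was larger, 0.18 in the brightest 10 percent of signals and 0.28 above the filter. Most single differences were therefore no larger than the disagreement between probe sets, which carries no variation between mice or arrays.

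**Figure D1:**
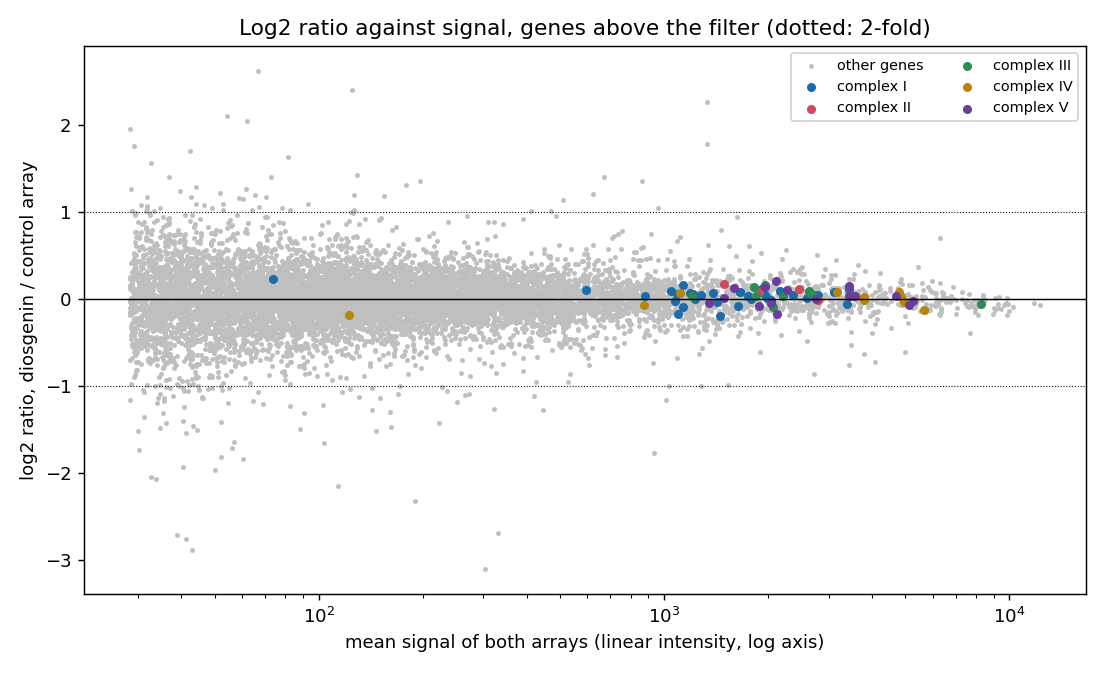
Log2 ratio of the diosgenin over the control array (vertical axis) against the mean signal of both arrays (horizontal log axis) for the genes above the filter, with other genes in grey, subunits coloured by complex and dotted lines at 2-fold. The subunits lie in a flat band between −0.20 and 0.22, and 69 of 74 are at a mean signal of 1000 or more.

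Promoters of many respiratory genes are known for sites of the activators NRF1 and GABP and of YY1. RefSeq promoter windows of 300 bases on GRCm38.p6, reaching 50 bases past the start site, matched 67 of the 83 genes. The longer, palindromic NRF1 letters were found on either strand in 4 of the 67, 5.97%, against 1.07% of 27025 genes with a window. The shorter NRF1 letters TGCGCA, which can overlap them, were found in 17, 25.4% against 8.79%. The GABP letters CCGGAAGT were found in 5, 7.46% against 4.31%, and the YY1 letters AAGATGGC in 9, 13.4% against 3.19%. The background here is all genes with a window, measured in these livers or not, and shares among measured genes were not computed. The median log2 ratio was 0.073 for the 4 measured genes with the longer NRF1 letters and 0.030 for the 57 without them. It was 0.035 for the 16 with TGCGCA and 0.029 for the 45 without it. It was 0.071 for the 5 with the GABP letters and 0.030 for the 56 without them, and 0.045 for the 9 with the YY1 letters and 0.027 for the 52 without them. These medians were higher with each of the 4 motifs, over few genes, and the differences were not tested. The groups share genes. Uqcrc1, Cox6a1 and Atp5g2 hold both forms of the NRF1 letters, and Ndufb8, Ndufa9 and Atp5pb hold TGCGCA and the YY1 letters. Genes with the longer NRF1 letters ran from −0.13 for Cox6a1 to 0.20 for Atp5k. A match is a description of letters and not a site. The following 100 bases before the start site are shown because they hold a match, with the matched letters in capitals, for genes across complexes III to V whose ratios ran from −0.091 to 0.15. Uqcr11 and Uqcrh, the highest and the lowest complex III gene, hold the same GABP letters.
Atp5g2, chr15:102671048-102671147, minus strand: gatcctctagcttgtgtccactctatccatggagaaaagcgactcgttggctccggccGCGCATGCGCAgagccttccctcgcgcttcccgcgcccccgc
Cox5b, chr1:36691387-36691486, plus strand: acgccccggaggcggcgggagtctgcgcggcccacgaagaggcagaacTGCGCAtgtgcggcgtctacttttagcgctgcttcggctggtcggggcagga
Uqcr11, chr10:80406822-80406921, minus strand: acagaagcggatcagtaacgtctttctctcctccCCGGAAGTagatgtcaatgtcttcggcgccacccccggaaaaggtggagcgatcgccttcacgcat
Uqcrh, chr4:116075071-116075170, minus strand: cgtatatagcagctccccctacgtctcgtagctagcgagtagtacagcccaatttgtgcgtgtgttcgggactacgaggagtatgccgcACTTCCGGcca
Atp5h, chr11:115419920-115420019, minus strand: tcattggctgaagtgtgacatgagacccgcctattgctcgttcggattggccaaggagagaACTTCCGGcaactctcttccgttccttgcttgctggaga
The capitals of Atp5g2 join the longer NRF1 letters and the overlapping shorter ones, those of Cox5b are the shorter NRF1 letters, and those of Uqcrh and Atp5h are the GABP letters read on the opposite strand.

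Complex I, the largest complex, had 34 of its 36 genes above the filter, 25 higher and 9 lower (median log2 ratio 0.046). Its nuclear-encoded catalytic subunits, which hold the flavin and most iron-sulfur clusters or line the quinone site, were higher in 6 of 6 cases, with a median of 0.069 and a range from 0.012 to 0.11. Of all genes above the filter 49% were higher, and of the measured subunits 67.6%. Ndufs3, a core subunit beside the quinone site, read 1842 in the control pool and 1991 in the diosgenin pool, a log2 ratio of 0.11. Ndufv1, which binds the flavin that accepts electrons from NADH, read 1622 and 1708. Ndufs8 and Ndufs7, which carry iron-sulfur clusters on the way to quinone, read 3021 and 3179, and 1162 and 1215. Ndufs1, with further clusters of the NADH-oxidising end, read 873 and 894, and Ndufv2 read 1982 and 1998. By their brightest probe sets all 6 were slightly higher, by 1.01-fold to 1.08-fold, but Ndufv2 was level, at −0.0011, after quantile normalization. Other probe sets were not always of the same sign, with one at −0.062 for Ndufs7 and others from −0.15 to 0.11 for Ndufs8. A further Ndufv2 probe set, of a type that can bind several transcripts, read 840 and 1120, a log2 ratio of 0.42. With the median of the probe sets of each gene, the median of the 6 was 0.030.

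The accessory subunits of complex I surround the catalytic core and are needed for its assembly and stability. Of the 13 measured Ndufa genes, 9 were higher and 4 lower (median log2 ratio 0.045), and of the 12 measured Ndufb and Ndufc genes, most of which belong to the membrane arm, 9 were higher and 3 lower (median log2 ratio 0.047). Ndufa5, a subunit of the peripheral arm, read 1073 in the control pool and 1199 in the diosgenin pool, 1.12-fold higher. Ndufb5 read 1850 and 2017, 1.09-fold higher, and Ndufb9 read 3294 and 3556, 1.08-fold higher. A second probe set of each did not show this, with 1795 and 1740 for Ndufb5, a log2 ratio of −0.045, and 2980 and 2964 for Ndufb9, one of −0.0079. Ndufb1 had the highest ratio at the dim signals of 68.1 and 79.4, where ratios of all genes spread more widely.

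The lowest complex I subunits were Ndufa8 and Ndufb3. Ndufa8, a subunit with disulfide-bonded helices on the intermembrane side, read 1557 in the control pool and 1356 in the diosgenin pool, 1.15-fold lower. Ndufb3, of the membrane arm, read 1162 and 1028, 1.13-fold lower. Each was read by 1 probe set, so neither has a repeat measurement. Ndufb7 read 1169 and 1098, and Ndufa1 read 3468 and 3319. Ndufb7 had a second probe set with the opposite sign, at a log2 ratio of 0.12. Of the other accessory subunits Ndufs4 had a log2 ratio of 0.096, and Ndufs5 and Ndufv3 ones of −0.030 and −0.085.

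Ndufa4 was counted with complex I by its name, although it is now placed in complex IV, and read 2624 and 2733. Its paralogue Ndufa4l2, known from low oxygen, read 24.2 and 19.6 and did not pass the filter. Ndufb4 did not pass either, with 3.32 and 0.70 on its own probe set. Probe sets that the annotation assigns to Ndufb4 together with other genes were left out.

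**Figure D2:**
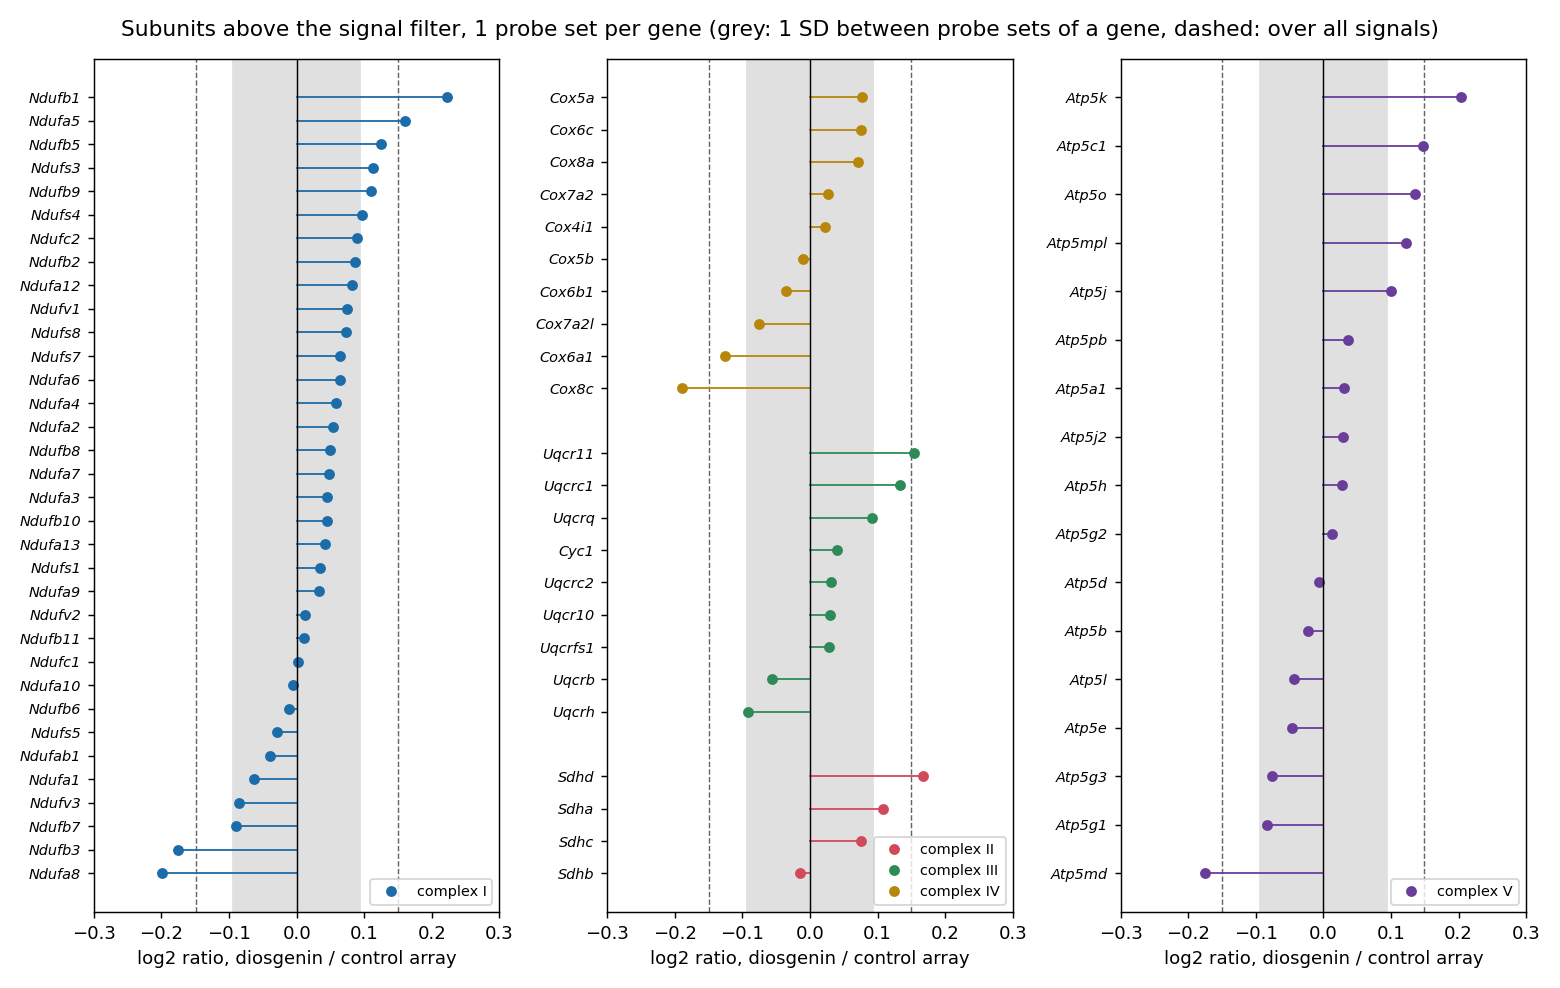
Log2 ratio of the diosgenin over the control array for each of the 74 subunits above the signal filter, ordered within complexes I to V, 1 probe set per gene. The grey band, 0.094 to either side of 0, is 1 standard deviation among repeat probe sets in the brightest 10 percent of signals, and the dashed lines, at 0.15, are the same over all signals above the filter. Outside the band lie 20 subunits, dim ones included, and outside the dashed lines 9. The shares of all genes outside them were not computed.

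Complex II, succinate dehydrogenase, also works in the citric acid cycle and has no subunit from mitochondrial DNA. Its 4 genes had a median log2 ratio of 0.092, with 3 higher and 1 lower. Sdhd, a membrane anchor, read 1409 in the control pool and 1582 in the diosgenin pool, 1.12-fold higher. Sdhc, the other anchor, read 1835 and 1935, 1.05-fold higher. Sdha, the flavoprotein that oxidises succinate, read 2364 and 2547, 1.08-fold higher, and Sdhb, the iron-sulfur subunit, read 2804 and 2777, nearly level. The probe sets of a gene did not always give the same size or sign. A second Sdha probe set above the filter read 2036 and 1906, 1.07-fold lower, a second Sdhc probe set read 393 and 505, 1.28-fold higher, and a second Sdhd probe set read 277 and 280. With the median of the probe sets of each gene, the complex II median was 0.048.

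Complex III, which passes electrons from reduced coenzyme Q to cytochrome c, had 9 measured genes, 7 higher and 2 lower (median log2 ratio 0.031). The catalytic subunits Cyc1, the cytochrome c1 gene, and Uqcrfs1, the Rieske iron-sulfur protein, read 2639 and 2714, and 2184 and 2228, in the control and diosgenin pools. Both were within 1.03-fold. Of the large core proteins, Uqcrc1 read 1740 and 1907, a log2 ratio of 0.13, and Uqcrc2 read 1831 and 1871. Among the small subunits, Uqcr11 read 1854 and 2062, 1.11-fold higher, Uqcrq 2549 and 2718, and Uqcr10 1190 and 1215. Uqcrb read 8437 and 8119, with a log2 ratio of −0.056 that was 0.027 after quantile normalization, and the hinge protein gene Uqcrh read 2137 and 2006, with one of −0.091. The second probe sets of both lower genes had the opposite sign, at 0.060 for Uqcrb and 0.050 for Uqcrh. The same held for 2 of the higher genes, with second probe sets at −0.045 for Uqcrc2 and, at the dim signals of 71.6 and 60.5, at −0.24 for Uqcr10. The median over the probe sets of Uqcr10 was −0.11. Uqcrq and Uqcrh were read by probe sets that can bind several transcripts and are uncertain.

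Complex IV, cytochrome c oxidase, had as many higher as lower genes with the isoform Cox8c and the factor Cox7a2l counted, which were both lower. Of its 17 genes 10 passed the filter, 5 higher and 5 lower, and the median log2 ratio of 0.0065 and the mean of −0.016 were opposite in sign. The 8 subunits found in all tissues that passed the filter were within 1.09-fold. Cox5a read 4674 in the control pool and 4929 in the diosgenin pool, and Cox6c read 3079 and 3245, each 1.05-fold higher, but Cox5a was lower, at −0.048, when read only by probe sets of unique design, and Cox6c nearly level, at −0.0098, by the median of its probe sets. Cox4i1 read 3757 and 3817, Cox7a2 read 4805 and 4892, and Cox8a 1087 and 1142. Cox5b read 3801 and 3775, and Cox6b1 5002 and 4882, both close to level, and Cox5b had the opposite sign, at 0.023, after quantile normalization. Cox6a1, the liver form of this subunit, was the lowest of these at 5891 and 5400, 1.09-fold lower, and its second probe set gave a log2 ratio of −0.11. Cox7a2l, a factor that joins complexes III and IV into supercomplexes, read 896 and 850. Cox5b, Cox8a and Cox7a2l were read by probe sets that can bind several transcripts and are uncertain.

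Several cytochrome c oxidase subunits exist as isoforms of other tissues, and 6 of these 7 isoform genes did not pass the filter. The heart and muscle isoforms Cox6a2, Cox7a1 and Cox8b read 17.9 and 26.3, 10.8 and 16.7, and 3.85 and 0.96. Cox4i2, an isoform of lung, read 2.60 and 1.99, and the testis isoforms Cox6b2 and Cox7b2 read 14.6 and 7.22, and 0.53 and 1.89. The testis isoform Cox8c was the exception with signals of 130 and 114, 1.14-fold lower, and its second probe set, at 39.2 and 20.9, had a log2 ratio of −0.91. Cox7c, a subunit found in all tissues, was read only by dim probe sets, the brighter one at 27.8 and 15.3, and did not pass the filter. Whether these probe sets read the main Cox7c transcript was not tested. Among the genes under the filter, Cox7a1 at 1.54-fold higher and Cox7c at 1.81-fold lower were the members past 1.5-fold, at signals near the floor.

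Complex V had all 17 genes above the filter, 10 higher and 7 lower (median log2 ratio 0.028). In the catalytic head and central stalk, 2 genes were higher and 3 lower. Atp5a1 and Atp5b, the subunits that form the catalytic sites, read 3455 and 3528, and 5285 and 5203, in the control and diosgenin pools, both within 1.03-fold. Atp5c1, the rotating central stalk, read 3248 and 3598, 1.11-fold higher, and is uncertain because its probe set may cross-hybridise. The median of these 5 genes was −0.0066 and their mean 0.020, opposite in sign. With the median of the probe sets of each gene, the median of the 5 was 0.086, so no direction can be given for the head and central stalk.

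The peripheral stalk, which holds the head still against the rotor, was higher in 4 of 4 genes, with a median log2 ratio of 0.069. For comparison, 49% of all genes above the filter and 67.6% of the measured subunits were higher. Atp5o read 1871 and 2055, a log2 ratio of 0.14, Atp5j read 2190 and 2348, 1.07-fold higher, Atp5pb read 4623 and 4741, and Atp5h read 3537 and 3605. Atp5pb and Atp5h, at log2 ratios of 0.036 and 0.028, were within the 0.094 standard deviation between probe sets. Atp5pb is uncertain by its brightest probe set, which can bind several transcripts, and its second gave a log2 ratio of 0.090. The genes of the proton-carrying c-ring, Atp5g1, Atp5g2 and Atp5g3, encode the same mature protein and differ in their import sequences. Atp5g1 read 1942 and 1833, Atp5g3 read 5269 and 4999, and Atp5g2 read 1485 and 1499, so 2 of 3 were slightly lower. The small membrane subunits went both ways. Atp5k, subunit e, read 1965 and 2263, 1.15-fold higher, and its other probe sets gave log2 ratios of 0.15 and 0.053. Atp5md, a subunit that holds ATP synthase dimers, read 2256 and 1998, 1.13-fold lower, and Atp5mpl read 1527 and 1662, 1.09-fold higher. Atp5k is uncertain by its brightest probe set, which can bind several transcripts.

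Probe sets of the same gene often differed in sign. Of the 74 subunits 42 had more than 1 probe set above the filter. In 16 of these all probe sets were higher, in 3 all were lower, and in 23 the signs were mixed. Those with all probe sets higher included Ndufa5 at 0.16 and 0.31, Atp5k, and Atp5o. Those with all probe sets lower were Cox6a1, Cox6b1 and Cox8c. Over all 138 member probe sets above the filter 91 were higher, 65.9% against 49.4% of all such probe sets with 1 symbol. Opposite signs with a gap of at least 0.3 in log2 ratio were seen for 3 genes. Ndufc2 probe sets ran from −0.67, at the dim signals of 42.4 and 26.6, to 0.18, those of Ndufa7 from −0.20 to 0.11, and those of Cox5b from −0.066 to 0.29.

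**Figure D3:**
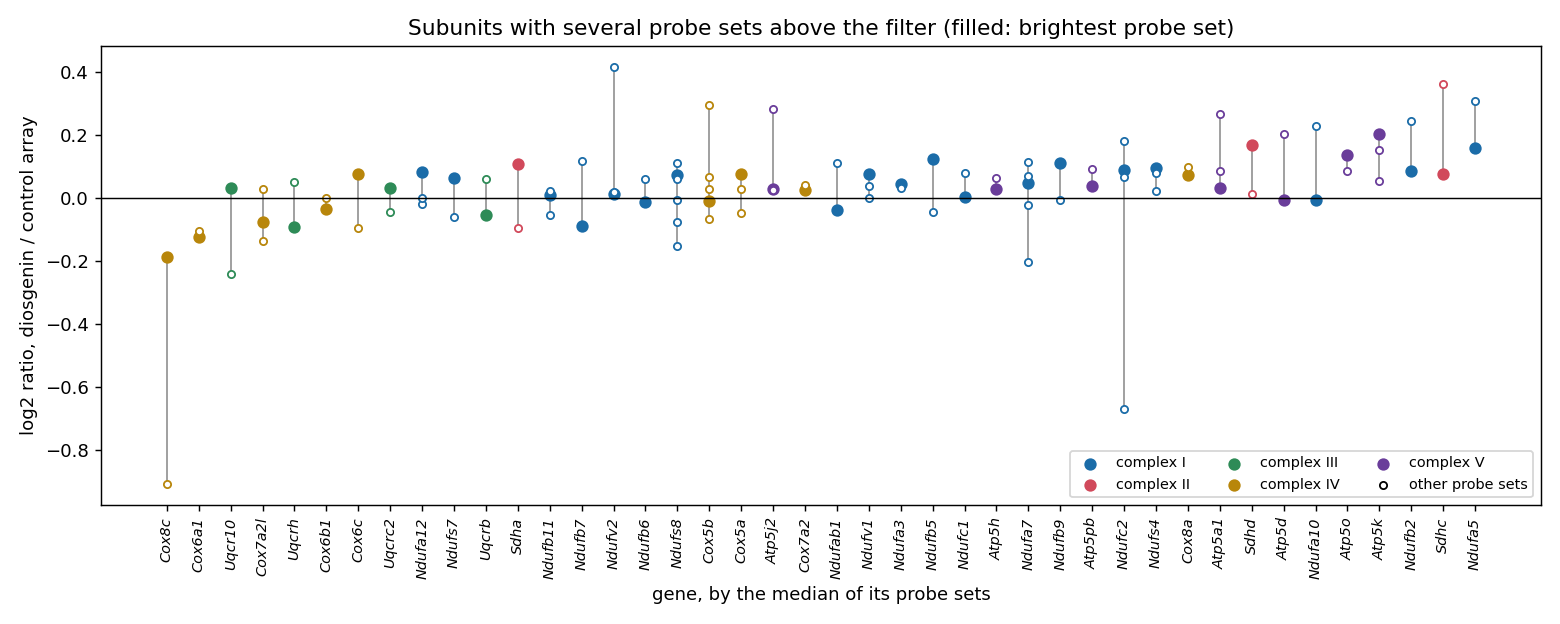
Log2 ratio of the diosgenin over the control array (vertical axis) for each probe set of the 42 subunits with more than 1 probe set above the filter, with genes ordered by their median. Filled points are the brightest probe set of a gene and open points the others, and in 23 of the 42 genes the points lie on both sides of 0.

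Genes that build and serve the chain did not share the slight excess of higher values throughout. Factors for the assembly of complex I were higher in 7 of 14 cases, with a median of −0.057. Ndufaf6 read 175 in the control pool and 115 in the diosgenin pool, 1.52-fold lower, and Nubpl, which delivers iron-sulfur clusters to complex I, read 246 and 306, 1.24-fold higher. Complex II assembly had 1 gene higher and 3 lower, with Sdhaf3 at 200 and 153, a log2 ratio of −0.39, and Sdhaf4 at one of 0.079. Complex III assembly had 2 higher and 3 lower, from −0.24 for Uqcc2 to 0.22 for Uqcc1. Complex IV assembly had 10 higher and 8 lower (median log2 ratio 0.0015), from −0.19 for Coa6 to 0.33 for the copper chaperone Sco1. The complex V list had 2 higher and 2 lower, from −0.17 for Tmem70 to 0.17 for Atpif1, the inhibitor of ATP hydrolysis.

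Among electron carriers and coenzyme Q synthesis, 6 were higher and 10 lower (median log2 ratio −0.066). Cycs, cytochrome c, read 4533 and 4341, and the extremes were Coq4 at −0.37 and Coq5 at 0.35. Nucleotide and phosphate exchange had 4 higher and 2 lower (median log2 ratio 0.059), from −0.062 for the phosphate carrier Slc25a3 to 0.36 for the nucleotide exchanger Slc25a4, which was dim at 73.0 and 93.3. The citric acid cycle list had 9 higher and 3 lower (median log2 ratio 0.045). Fh1, fumarase, was its highest at 1848 and 2072, and citrate synthase Cs its lowest at 723 and 554, with a log2 ratio of −0.38. The regulators of mitochondrial biogenesis had 6 higher and 7 lower (median log2 ratio −0.024) and the widest spread of these lists, at signals of 684 or less. Ppargc1a, the coactivator that promotes mitochondrial biogenesis, read 38.7 and 70.9, 1.83-fold higher. These are dim signals, where ratios of all genes spread more widely. Tfb1m, a methyltransferase of the mitochondrial ribosome, read 224 and 137, 1.63-fold lower, and is uncertain because its probe set can bind several transcripts. Further probe sets of the genes in these other lists were not compared.

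**Figure D4:**
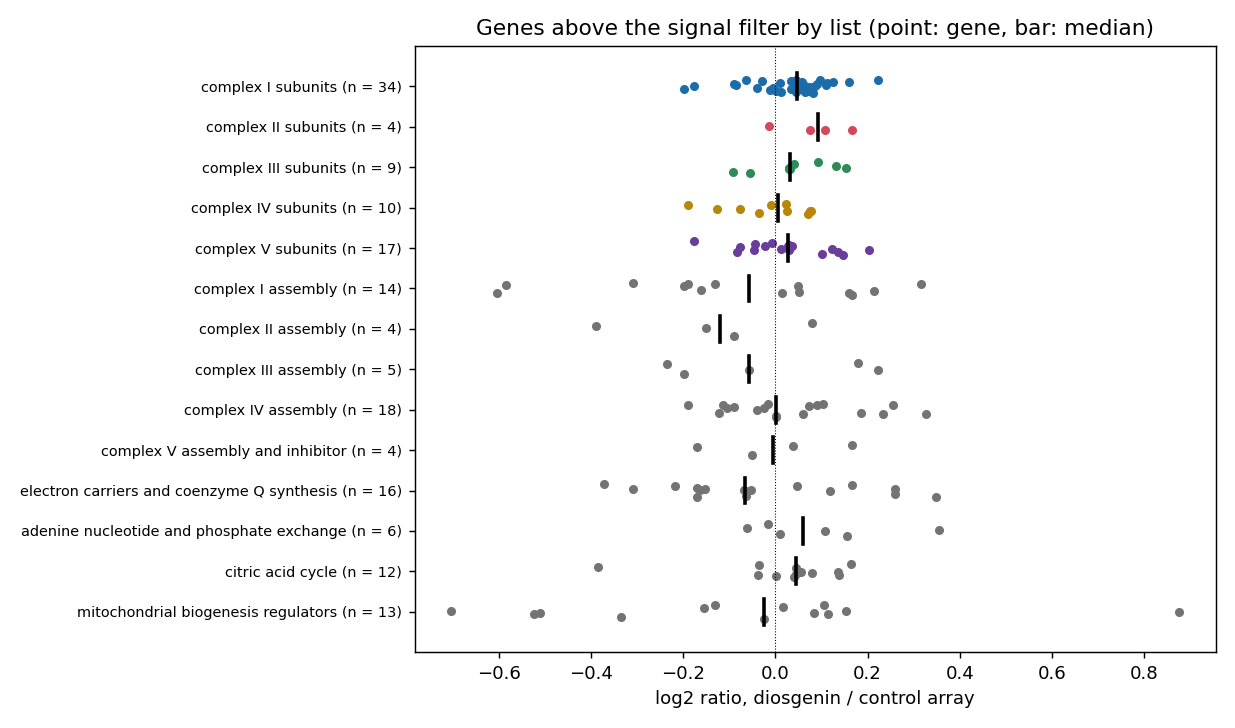
Log2 ratio of the diosgenin over the control array for each gene above the filter, by list, with a bar at the median of the list and vertical jitter for legibility. Subunits of complexes I to V (coloured) lie between −0.20 and 0.22, while the other lists (grey) reach from −0.70 for Tfb1m to 0.88 for Ppargc1a. Tfb1m is uncertain because its probe set can bind several transcripts. Many genes of the other lists were dimmer, where ratios of all genes spread more widely. The highest signal was 486 among complex I assembly genes and 684 among biogenesis regulators. The part of signal in this contrast was not tested.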

How the data were processed

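Liver RNA of 3 mice per diet was pooled and hybridised to 1 Affymetrix array per diet, per the labels' protocols. The deposited values are array intensities on a linear scale, 1 per probe set, and GCOS is named in the submitters' processing notes. How probes were summarised and scaled is "not given in the sources used here". The 2% trimmed mean was 96.9 for each. Gene names came from the platform annotation, and all 83 member gene IDs matched the RefSeq table of GRCm38.p6. In Python 3.11.15 with pandas 2.3.3, signals were set to a floor at the 40th percentile, genes were read by their brightest probe set and kept at the 60th percentile of mean signal, and log2 ratios were taken. The procedure was checked on simulated data, with a tolerance wider than the median of all subunits, so the check does not bear on differences this small. The range of mean signal of 1000 or more, the grouping of subunits by role, the list of isoforms and the promoters printed were chosen after the values were seen. Of 74 measured members, 18 were read by probe sets of suffix _s_at or _x_at, prone to cross-hybridisation, and 26 by ones ending in _a_at, which read alternative transcripts.

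Named in each complex were the 5 highest and 3 lowest ratios, the 2 brightest genes, genes past 1.5-fold above the floor, genes with discordant probe sets and isoforms, and, of other lists, the extremes and genes past 1.5-fold. Further members were named for their role after their values were seen. Members and lists were chosen with earlier results of these data known. With 1 array per diet no test was made, and the number of arrays limits the precision. The alternatives were other floors, filters, probe set rules, scalings, the complex of Ndufa4, and members without isoforms and factors.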

Additional observations from a re-analysis of the deposited data

How the results depend on the processing

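Under 12 alternatives, the median and counts of all subunits and the median of each complex were recomputed, giving 168 values. Counts by complex were not recomputed. Of the 168, 161 stayed within the limits set. The limit for a count was 1.5 times. For a median it was the probe set standard deviation divided by the square root of the number of genes. Many of the 168 could hardly move, so their number overstates the stability. The other floors left every value unchanged. Placing Ndufa4 in complex IV concerned only complexes I and IV, and leaving out isoforms and factors only complex IV and all subunits. None of the medians of all subunits or of a complex changed sign, but that of complex IV came to 0 without a signal filter. Of the medians by role, added after seeing the data, 3 changed sign with the choice of probe sets: the head and central stalk of complex V (up to 0.086), the catalytic subunits of complex II (down to −0.0040) and the Ndufs and Ndufv accessory subunits (up to 0.033). With probe sets ending in _x_at, _s_at or _a_at left out, 51 genes remained, the median of all subunits was 0.059 and that of complex IV 0.041, and 13 subunits were lower. Quantile normalization gave complex V a median of 0.052. Without a filter, 7 subunits were lower by at least 1.1-fold, and past 1.5-fold lay 1 higher (Cox7a1) and 1 lower (Cox7c). The median of all subunits ranged from 0.030 to 0.059. Of the 74 measured subunits, 15 had the opposite sign in 22 of 860 values, which came to 11 genes with the median of the probe sets, 8 with probe sets ending in _x_at, _s_at or _a_at left out, and 3 (Cox5b, Uqcrb and Ndufv2) with quantile normalization. No paired analysis was possible because each diet has 1 array.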

Other observations

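Of 10 probe sets that the annotation assigns to a subunit together with other genes, 6 passed the signal filter. Their log2 ratios ran from −0.10 to 0.19, 4 above and 2 below 0 (median 0.010), and no gene is named from them.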
